A study of Mus musculus with 13 samples.

Results

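Invariant natural killer T (iNKT) cells of the thymus of young adult BALB/c mice were compared by RNA sequencing between the iNKT1 and the iNKT2 subset, with 2 libraries of each. The genes described were those whose deposited normalized count reached 10 in 2 or more of these 4 libraries, which held for 10782 of the 24421 genes listed. In all of the groups the cells were B220- CD3+ and bound the CD1d tetramer that marks iNKT cells. At 6 weeks of age, iNKT1 cells were sorted as CD122+ cells with or without CD4, iNKT2 cells as CD122- CD4+ cells and iNKT17 cells as CD122- CD4- cells, each library from the pooled thymi of 3 female mice. The same gates were used on pools of 7 female mice aged 25 weeks, where the CD122- CD4+ gate is called iNKT2p because it holds a mixture of cells. The paper also found iNKT17 cells among these sorted iNKT2p cells, while its other sorted populations were purer. The labels name no genetic change and no treatment in any group. The sort rests on 2 surface proteins and not on the transcription factors that define the subsets, and in such bulk samples fewer cells of a type and less RNA per cell cannot be told apart. The paper describes 2 independent sorts, but the labels do not say which libraries came from the same sort. Subsets of the same sort were therefore not paired, and p-values measure only the spread between these libraries.

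iNKT cells carry a nearly invariant T cell receptor that recognises lipids presented by CD1d, and they leave positive selection in the thymus from CD4 CD8 double-positive thymocytes. Their subsets are the counterparts of helper T cell types. iNKT1 cells depend on the transcription factor T-bet and on interleukin 15, which they receive through CD122, and make interferon gamma. iNKT2 cells hold the most PLZF, the factor that drives the iNKT programme, and make interleukin 4 and interleukin 13, while iNKT17 cells make interleukin 17.

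A normalized count is a read count divided by the size factor of its library. The 4 libraries held 5682449 and 3590903 reads in genes for iNKT1 and 6790962 and 7089432 for iNKT2, so that 1 read was worth between 0.946 and 1.85 normalized counts. Replicates lay within 2-fold of each other, on values plus 1, for 89.4% of the genes in iNKT2 and for 76.0% in iNKT1. The second iNKT1 library, the shallowest of the 4, stood apart. It held 68 genes at 40 or more that did not exceed 6 in any of the 9 libraries other than the second library of each subset at 6 weeks, among them the epithelial keratin gene Krt8 (424 against 3.23 in the first iNKT1 library), Krt19 (398 against 0), the intestinal transcription factor gene Cdx2 (55.5 against 0) and the Y chromosome gene Eif2s3y (96.2 against 0), although the mice were female. Summed over these genes the level was 5877 in the second iNKT1 library, 0.0885% of its normalized counts, 536 in the second iNKT2 library, 378 in the second iNKT17 library and at most 38.3 in each of the 9 others. Of the 68 genes 20 were tested and none was called. Their choice by a gap between the 2 iNKT1 libraries made a call unlikely, and the part of this signal in other genes was not tested. The second iNKT1 library also lay below the first by a median log2 difference of 0.23 in the genes with the highest GC content, 1 of 4 equal bins, and above it by 0.17 in the bin with the lowest.

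The genes of the 2 sort markers matched the labels. Il2rb, which encodes CD122 (chromosome 15, 78480549 to 78495066, mm10), was at 11277 and 7559 in iNKT1 against 1036 and 1069 in iNKT2, a ratio of means of 8.95. Cd4 was at 2373 and 3415 in iNKT2 against 965 and 553 in iNKT1, and at 91.4 and 124 in the CD4- iNKT17 libraries, so the iNKT1 libraries lay between the others. These differences were set by the gates. Genes that the gates did not use went the same way: Tbx21, the gene of T-bet (chromosome 11, 97098007 to 97115137), was at 1579 and 1560 in iNKT1 against 80.4 and 99.5 in iNKT2, and Zbtb16, the gene of PLZF (chromosome 9, 48654297 to 48835945), at 3698 and 5484 in iNKT2 against 725 and 470 in iNKT1. In neither gene did the groups overlap. Leaving out 1 library ended the call of Cd4 (without the second library of either subset, adjusted p up to 0.089).

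With adjusted p under 0.05, 1867 of the 10782 genes differed, or 17.3% of those tested. Of these, 969 (8.99% of the genes tested) were higher in iNKT1 and 898 (8.33%) were higher in iNKT2. The groups overlapped in none of the 1867 called genes, but they also failed to overlap in 3340 of the 10782 that were not called. Lack of overlap was thus common and does not by itself mark a difference. A log2 difference of at least 3, which is 8-fold, was reached by 227 of the genes higher in iNKT1 and by 271 of those higher in iNKT2, and 46 and 83 of the called genes had no read in either library of the other group. The median log2 difference over all genes was -0.01. Among the genes tested, 233 had passed the minimum only through both iNKT1 libraries and 290 only through both iNKT2 libraries, and of these, which had to differ, 151 and 220 were called. Differences are on the scale of log2 of the normalized count plus 1, which understates the change of genes with few reads. Leaving out the second iNKT1 library gave 915 and 832 calls, leaving out the first gave 1429 and 2035, and fitting the 4 libraries alone, with fewer degrees of freedom, left 296 and 164.

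**Figure D1:**
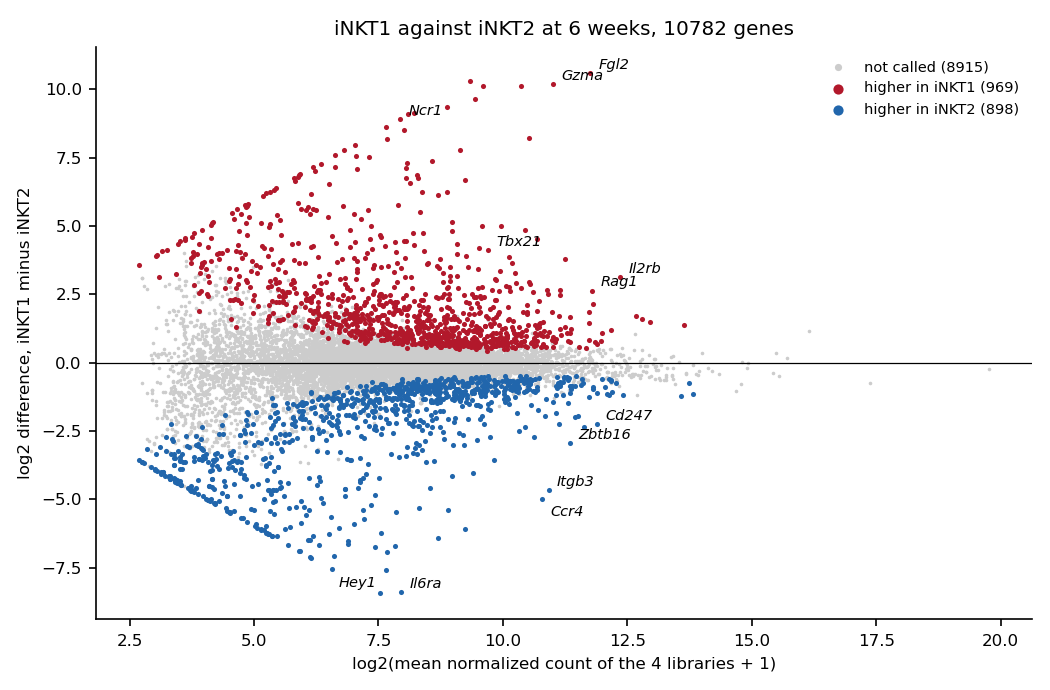
Each point is 1 of the 10782 genes, with the log2 of its mean normalized count plus 1 over the 4 libraries on the x axis and its log2 difference, iNKT1 minus iNKT2, on the y axis, and colours mark the 969 genes higher in iNKT1 and the 898 higher in iNKT2. The straight edges at the left are genes with no read in the lower group, such as Ncr1 and Hey1, and Fgl2 has the highest difference at 10.59.

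The 12 genes with the largest differences in favour of iNKT1 included 3 of the killing machinery, a natural killer cell receptor and a pair of chemokines. Fgl2, the gene of fibrinogen-like protein 2, an immunoregulatory enzyme (chromosome 5, 21372673 to 21375960), was at 6433 and 7365 in iNKT1 against 18.9 and 0 in iNKT2 (log2 difference 10.59 ± 1.09 SE, adjusted p = 5.0e-05). All reads of Fgl2 in iNKT2 came from 1 library. Slamf7, a receptor of the SLAM family that activates natural killer cells, was at 1579 and 988 against 0 and 0, which is at least 904-fold higher in iNKT1 when 3 reads over both iNKT2 libraries are taken as the floor. Ccl5, a chemokine that attracts T cells, was at 1593 and 1504 against 0.946 and 0, the only iNKT2 value above 0 being a single read. Itga1, the collagen-binding integrin CD49a that marks tissue-resident lymphocytes, was at 1748 and 1036 against 1.89 and 0 (log2 difference 9.63 ± 0.71 SE, adjusted p = 5.9e-06). Kcnj8, a subunit of ATP-sensitive potassium channels, was at 751 and 1125 against 0.946 and 0 (log2 difference 9.37 ± 0.81 SE, adjusted p = 1.6e-05). The Ly6c2 and Ly6c1 genes encode the near-identical surface proteins of Ly6C, a marker of memory T cells, and were at 540 and 553 against 0 and 0 and at 459 and 563 against 0 and 0.948. Both copies were called (adjusted p = 5.6e-06 and 2.2e-05). Reads of such copies are hard to assign and can be split between them, so these calls are no check on each other. In the iNKT17 libraries at 6 weeks none of these 7 genes exceeded 6. All of them except Fgl2 stayed under 10 in both iNKT2 libraries. They passed the minimum only through the iNKT1 libraries and so had to differ.

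**Figure D2:**
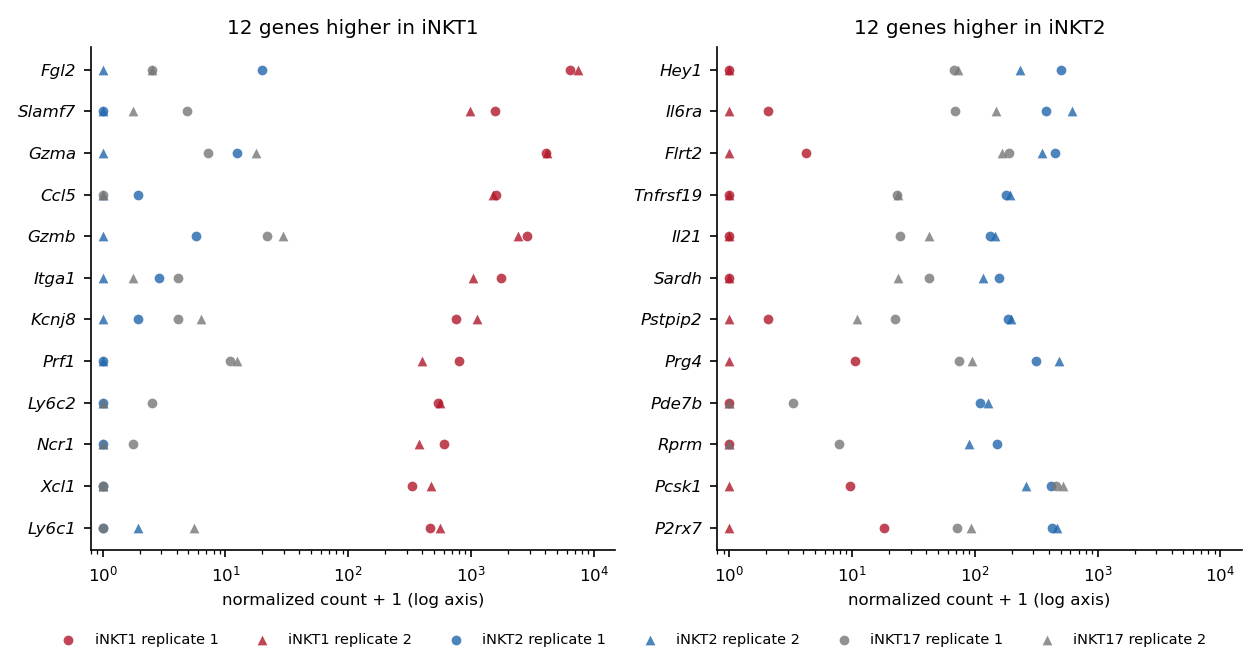
Each point is 1 library at 6 weeks, with its normalized count plus 1 on a logarithmic x axis, for the 12 called genes with the largest log2 difference in each direction and a mean of at least 100 in the higher group. Circles are replicate 1 and triangles replicate 2 of iNKT1 (red), iNKT2 (blue) and iNKT17 (grey). For genes higher in iNKT1 the iNKT17 libraries lie far below the iNKT1 libraries, and for genes higher in iNKT2 most lie between the other subsets, but for Pcsk1 they lie at 459 and 523, above both iNKT2 libraries.

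Most natural killer (NK) cell receptors that were read were higher in iNKT1. Of 36 listed genes of NK cell receptors and their adaptors 24 were tested, and 13 of these passed the minimum only through the iNKT1 libraries and so had to differ. Of the 11 others 10 were higher in iNKT1 and none was higher in iNKT2. Ncr1, the gene of the activating receptor NKp46, was at 598 and 378 against 0 and 0, at least 343-fold higher in iNKT1. Klrc2, which encodes the activating receptor NKG2C, was at 223 and 218 against 0 and 0, and its inhibitory relative Klrc1, the gene of NKG2A, at 974 and 1271 against 12.3 and 0.948 (log2 difference 7.77 ± 0.77 SE, adjusted p = 3.7e-05). Klre1 was at 246 and 278 against 0.946 and 0. Cd244, the SLAM receptor 2B4, was at 352 and 276 against 0 and 1.896 (log2 difference 7.52 ± 0.84 SE, adjusted p = 9.0e-05). Activating and inhibitory receptors stood on the same side. Fcer1g and Tyrobp, which encode the adaptors through which many activating receptors signal, were at 821 and 409 against 1.89 and 7.58 and at 61.3 and 109 against 0 and 0, both without overlap. Klra3, an inhibitory receptor of the Ly49 family, was at 1899.8 and 1956 against 46.3 and 75.8 (ratio of means 31.6). The Ly49 genes are near-identical copies, among which reads can be split, so their individual values are uncertain. The one member not called was Klrb1a, at 30.1 and 46.3 against 8.51 and 33.2.

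The Klr receptor genes also shared a place in the genome. All 17 tested Klr genes lay on chromosome 6, in the NK gene complex, and 16 of them were called, between 128778485 and 130386874 (mm10). Of the 7 other tested genes in that stretch 5 were higher in iNKT1, against the 8.99% of all genes: Cd69, Clec2i, Gabarapl1, BC064078 and BC035044, and none was higher in iNKT2. Cd69 encodes an early activation receptor that holds lymphocytes in tissue and was at 357 and 664 against 45.4 and 66.4. The stretch was chosen after its values were seen. The fits without 1 library no longer called BC035044 (without the second library of either subset, adjusted p up to 0.19), BC064078 (without the first iNKT2 library, the second iNKT1 library or the second iNKT2 library, adjusted p up to 0.10) and Clec2i (without the second library of either subset, adjusted p up to 0.087).

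Genes of killing changed mostly in favour of iNKT1. Of 20 tested genes 11 were higher in iNKT1 and 1 was higher in iNKT2, or none without the second iNKT2 library and 2 without either iNKT1 library. Among them 4 passed the minimum only through the iNKT1 libraries, and of the 16 others 8 were higher in iNKT1. Gzma, the gene of granzyme A (chromosome 13, 113093827 to 113100951), was at 4106 and 4139.7 against 11.3 and 0 (log2 difference 10.20 ± 0.97 SE, adjusted p = 2.9e-05). Gzmb, the gene of granzyme B, which triggers death of target cells, was at 2842 and 2421 against 4.73 and 0 (log2 difference 10.10 ± 0.81 SE, adjusted p = 9.5e-06). Prf1, the gene of perforin, which lets granzymes into target cells, was at 793 and 398 against 0 and 0, at least 419-fold higher. The iNKT17 libraries held 9.99 and 11.4 of Prf1 and 20.7 and 28.2 of Gzmb, low but above the iNKT2 libraries. Nkg7, the gene of a granule membrane protein needed for degranulation, was at 2454 and 3436 against 2.84 and 23.7 and Fasl, the gene of the death ligand FasL, at 869 and 1092 against 35.9 and 19.9. Among the 8 not called, Srgn, the proteoglycan of granules, was at 1953 and 3299.5 against 3558 and 2704, and Lamp1, a membrane protein of granules and lysosomes, at 593 and 577 against 687 and 663. The gene of the list that was higher in iNKT2 was Rab27a, whose product docks granules at the membrane, at 884 and 1074 in iNKT2 against 639 and 448 in iNKT1 (log2 difference -0.86 ± 0.19 SE, adjusted p = 0.0091). Srgn, Lamp1 and Rab27a were named after their values were seen. The call was lost without 1 library for Rab27a (without the second iNKT2 library, adjusted p = 0.070).

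The promoters of called genes were searched for short motifs of the factor families that the regulators below belong to. Shown are 4 windows, 2 of genes higher in iNKT1 and 2 of genes higher in iNKT2, each of 250 bases before and 50 after the start (RefSeq, GRCm38.p6), in the direction of the gene, with the motif in capitals. Nkg7 (chr7:43436888-43437187, plus strand) holds the T-box half-site AGGTGTGA, Gzma (chr13:113100932-113101231, minus strand) the reverse complement of the RUNX site TGTGGTTT, Il13 (chr11:53634653-53634952, minus strand) that site itself, and Nrp2 (chr1:62703067-62703366, plus strand) the TCF and LEF site CTTTGAT.
Nkg7: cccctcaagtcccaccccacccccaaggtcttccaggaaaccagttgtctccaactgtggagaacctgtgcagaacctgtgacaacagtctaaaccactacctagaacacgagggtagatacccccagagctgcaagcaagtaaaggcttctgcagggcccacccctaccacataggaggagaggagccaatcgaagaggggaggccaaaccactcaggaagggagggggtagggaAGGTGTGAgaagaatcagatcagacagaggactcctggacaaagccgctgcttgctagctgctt
Gzma: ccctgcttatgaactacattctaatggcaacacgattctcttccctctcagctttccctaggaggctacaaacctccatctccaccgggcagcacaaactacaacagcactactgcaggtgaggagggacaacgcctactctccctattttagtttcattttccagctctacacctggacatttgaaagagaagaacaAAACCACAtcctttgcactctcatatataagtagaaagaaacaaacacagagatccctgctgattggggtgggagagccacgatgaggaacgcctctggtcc
Il13: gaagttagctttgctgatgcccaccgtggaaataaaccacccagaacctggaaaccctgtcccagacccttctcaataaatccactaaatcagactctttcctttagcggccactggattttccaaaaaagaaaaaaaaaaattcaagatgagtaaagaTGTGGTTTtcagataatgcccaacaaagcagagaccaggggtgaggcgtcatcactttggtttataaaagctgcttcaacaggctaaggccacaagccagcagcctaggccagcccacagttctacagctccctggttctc
Nrp2: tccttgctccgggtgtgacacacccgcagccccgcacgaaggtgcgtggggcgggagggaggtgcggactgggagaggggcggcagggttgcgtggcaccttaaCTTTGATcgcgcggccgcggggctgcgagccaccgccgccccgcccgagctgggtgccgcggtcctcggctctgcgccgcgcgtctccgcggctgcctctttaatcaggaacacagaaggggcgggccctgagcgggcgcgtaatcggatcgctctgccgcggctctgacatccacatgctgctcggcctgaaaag
On both strands, the T-box letters stood in 0.970% of 928 windows of genes higher in iNKT1, 0.761% of 920 windows of genes higher in iNKT2 and 1.28% of all 32851 windows. The RUNX letters stood in 1.72%, 1.63% and 1.78%, and the TCF and LEF letters in 2.16%, 2.17% and 3.73%. The GATA site AGATAAG stood in 2.05%, 1.41% and 3.04%. Among the windows of all genes tested the shares were 0.745% for the T-box, 1.17% for the RUNX, 2.56% for the TCF and LEF and 1.64% for the GATA letters. Each motif thus stood in few windows in either direction. Windows were found for 1401 of the 1867 called genes, a match is a description of letters only, and the 4 windows were chosen because they hold a match.

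Transcription factors of type 1 and cytotoxic lymphocytes were mostly higher in iNKT1. Of 15 tested genes 10 were higher in iNKT1 and 1 was higher in iNKT2 (median 4.12). Of these 15, 5 passed the minimum only through the iNKT1 libraries, and of the 10 others 5 were higher in iNKT1. Tbx21, with the values given above, had a log2 difference of 4.12 ± 0.39 SE (adjusted p = 3.1e-05). Hopx, a homeodomain protein that binds no DNA and sustains Th1 cells, was at 404 and 409 against 0.946 and 0 (log2 difference 8.19 ± 0.85 SE, adjusted p = 5.1e-05). Stat4, which carries the interleukin 12 signal, was at 921 and 719.9 against 8.51 and 13.3 (log2 difference 6.13 ± 0.30 SE, adjusted p = 4.5e-07). Bhlhe40, a repressor that supports interferon gamma production, was at 616 and 392 against 36.9 and 12.3, Nfil3, a factor of NK cell development, at 93.6 and 57.4 against 0 and 3.79 and Zeb2, a factor of terminal effector cells, at 22.6 and 22.2 against 0 and 0. The iNKT17 libraries held Nfil3 at 131 and 134, above iNKT1. Eomes, the T-box relative of T-bet, was at 87.1 and 46.3 against 2.84 and 1.896. Runx3, which works with T-bet, was not called. Its replicates lay far apart and the groups overlapped, at 1074 and 285 against 155 and 524. Leaving out 1 library ended the call of Eomes (without either iNKT2 library, adjusted p up to 0.078) and Nfil3 (without the first iNKT2 library, adjusted p = 0.082).

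Factors of PLZF-high, Th2 and early T cells stood mostly on the iNKT2 side. Of 21 tested 11 were higher in iNKT2 and 1 was higher in iNKT1 (median -1.08). Without the second iNKT2 library 7 were higher in iNKT2. Zbtb16 had a log2 difference of -2.95 ± 0.24 SE (adjusted p = 9.8e-06), and the lower of the iNKT1 libraries still held 470 of it. Id3, an inhibitor of E proteins, was at 954 and 851 in iNKT2 against 75.3 and 165 in iNKT1 (log2 difference -3.00 ± 0.33 SE, adjusted p = 7.9e-05). Irf4, a factor of T cell receptor signals and Th2 cells, was at 416 and 337 in iNKT2 against 59.2 and 66.6 in iNKT1 (log2 difference -2.56 ± 0.26 SE, adjusted p = 4.2e-05). Egr3, which T cell receptor signals induce, was at 463 and 775 in iNKT2 against 202 and 148 in iNKT1, and Tox2 was low throughout, at 12.3 and 27.5 in iNKT2 against 2.15 and 0 in iNKT1. Lef1 and Tcf7, the factors of early T cells at the end of the Wnt pathway, were at 3062 and 4276 in iNKT2 against 1008 and 581 in iNKT1 and at 4902 and 7698 in iNKT2 against 3994 and 2106 in iNKT1. Gata3, the Th2 master factor, did not pass the test, at 1086 and 1268 in iNKT2 against 1016 and 619.9 in iNKT1 (log2 difference -0.56 ± 0.22 SE, adjusted p = 0.10). The gene that was higher in iNKT1 was Klf2, which drives exit from the thymus and quiescence, at 1672 and 1606 in iNKT1 against 187 and 201 in iNKT2 (log2 difference 3.07 ± 0.21 SE, adjusted p = 2.6e-06). Eomes, Runx3, Lef1, Tcf7 and Gata3 were named after their values were seen. The fits without 1 library no longer called Tcf7 (without the second library of either subset, adjusted p up to 0.22) and Tox2 (without the second library of either subset, adjusted p up to 0.14).

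**Figure D3:**
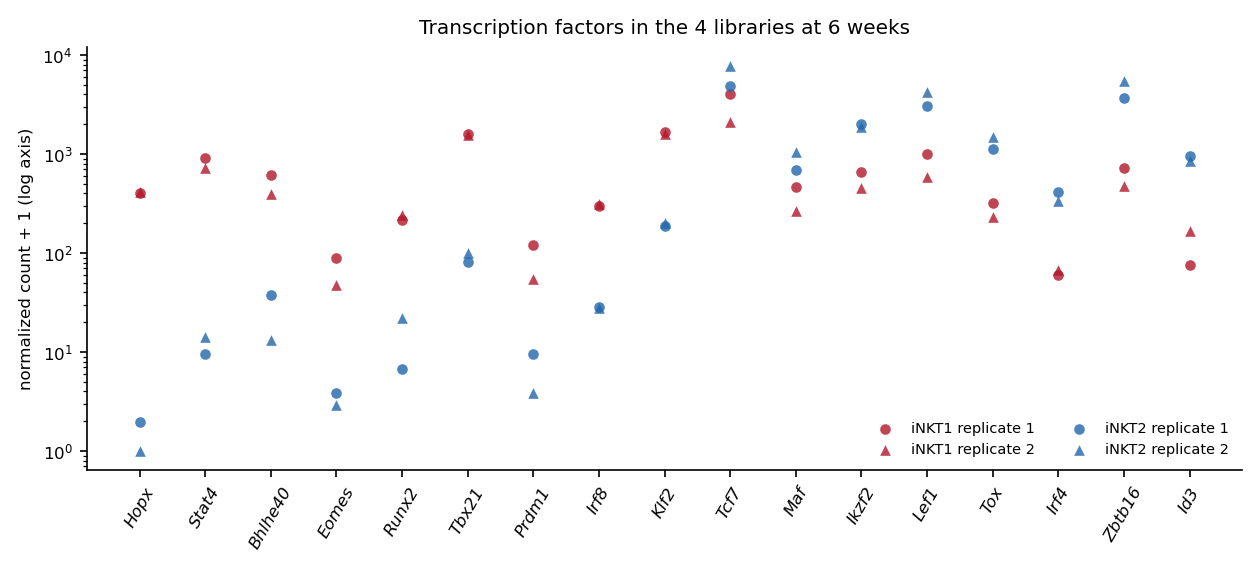
Each point is 1 library at 6 weeks, with the normalized count plus 1 on a logarithmic y axis, for 17 called transcription factors on the x axis (iNKT1 red, iNKT2 blue, replicate 1 circles, replicate 2 triangles). From Hopx to Klf2 both iNKT1 libraries lie above both iNKT2 libraries, and from Tcf7 to Id3 both lie below.

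Cytokine genes were called in both directions, with Ifng higher in iNKT1 and Il4 and Il13 higher in iNKT2. Of 16 tested 5 were higher in iNKT1 and 4 in iNKT2, or 8 in iNKT2 without the first iNKT1 library. The minimum was passed by 4 genes only through iNKT1 and by 3 only through iNKT2, which left 1 call in each direction among the 9 others. Ifng was at 427 and 507 in iNKT1 against 7.57 and 7.58 in iNKT2 (log2 difference 5.77 ± 0.63 SE, adjusted p = 7.9e-05), and Xcl1, the chemokine that attracts cross-presenting dendritic cells, at 329 and 470 against 0 and 0, at least 281-fold higher in iNKT1. Il4 was at 263 and 307 in iNKT2 against 9.68 and 44.4 in iNKT1 (log2 difference -3.69 ± 0.56 SE, adjusted p = 0.00074) and Il13 at 71.9 and 89.1 in iNKT2 against 0 and 9.25 in iNKT1 (log2 difference -4.66 ± 1.10 SE, adjusted p = 0.012). Il21, which helps B cells, had no read in iNKT1 and was at 131 and 146 in iNKT2, at least 68.0-fold higher. Lif, a cytokine of the interleukin 6 family, was at 22.7 and 32.2 in iNKT2 against 0 and 0 in iNKT1. Ltb and Csf2, the genes of lymphotoxin beta and of GM-CSF, were the other 2 that were higher in iNKT1, at 2232 and 2787 against 1291 and 1245 and at 23.7 and 12.95 against 2.84 and 0. Tnf, made by many activated T cells, was at 73.2 and 302 against 96.5 and 104 and was not called (adjusted p = 0.50). Ltb, Csf2 and Tnf were named after their values were seen. The call was lost without 1 library for Csf2 (without the first iNKT1 library or the second iNKT2 library, adjusted p up to 0.20) and Il13 (without either iNKT2 library, adjusted p up to 0.074).

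Receptors for cytokines moved in both directions, and within pathways. Of 27 tested 12 were higher in iNKT1 and 8 in iNKT2, of which 10 and 5 had not passed the minimum through 1 subset alone. Il12rb2, the inducible chain of the interleukin 12 receptor, was at 959.6 and 548 in iNKT1 against 1.89 and 5.69 in iNKT2 (log2 difference 7.37 ± 1.00 SE, adjusted p = 0.00037), whereas Il12rb1, the shared chain, was higher in iNKT2, at 413 and 419.9 in iNKT2 against 185 and 128 in iNKT1 (log2 difference -1.43 ± 0.21 SE, adjusted p = 0.00072). The interferon gamma receptor was split in the same manner, with Ifngr1, the ligand-binding chain, at 4202 and 4811 in iNKT1 against 412 and 258 in iNKT2 (log2 difference 3.78 ± 0.25 SE, adjusted p = 2.5e-06) and Ifngr2, the signalling chain, at 257 and 250.3 in iNKT2 against 61.3 and 22.2 in iNKT1 (log2 difference -2.74 ± 0.61 SE, adjusted p = 0.0092). Il4ra, the receptor of the cytokine that iNKT2 cells make, was higher in iNKT1, at 989 and 651 against 109 and 135 (log2 difference 2.72 ± 0.23 SE, adjusted p = 1.4e-05). Il10ra was at 597 and 472 against 2.84 and 1.896. On the iNKT2 side Il6ra, the interleukin 6 receptor, was at 376 and 615 in iNKT2 against 1.08 and 0 in iNKT1 (log2 difference -8.39 ± 0.53 SE, adjusted p = 1.8e-06), and Il17rb, the interleukin 25 receptor, at 368 and 359 in iNKT2 against 22.6 and 0 in iNKT1 (log2 difference -6.23 ± 1.01 SE, adjusted p = 0.0012). In iNKT17 cells Il6ra was at 67.6 and 148 and Il17rb at 252 and 194, between iNKT1 and iNKT2. Il12rb1, Ifngr1, Ifngr2 and Il4ra were named after their values were seen.

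Genes that interleukin 2 and interleukin 15 induce through STAT5, or that keep interleukin 15-dependent cells alive, leaned to iNKT1: 11 of 16 were higher in iNKT1 and none in iNKT2 (median 2.10). The list holds Il2rb itself, and 3 of the genes passed the minimum only through iNKT1. Without the first iNKT1 library 2 were higher in iNKT2. Bcl2, the survival gene, was at 1417 and 1247 in iNKT1 against 113 and 132 in iNKT2 (log2 difference 3.44 ± 0.21 SE, adjusted p = 1.7e-06). Pim1, a survival kinase, was at 583 and 733 against 44.5 and 62.6 (log2 difference 3.61 ± 0.24 SE, adjusted p = 2.6e-06), and Socs2, a feedback inhibitor, at 77.5 and 57.4 against 0.946 and 0.948 (log2 difference 5.12 ± 0.61 SE, adjusted p = 0.00014). The other cells without CD122, iNKT17, held 153 and 189.9 of Pim1 and 118 and 89.2 of Bcl2, so Pim1 lay between the subsets and Bcl2 at the iNKT2 level.

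The 12 genes with the largest differences in favour of iNKT2 were of mixed function, and 6 of them had no read in iNKT1. Hey1, a repressor that Notch induces (chromosome 3, 8663359 to 8666870), was at 505 and 231 in iNKT2 against 0 and 0 in iNKT1, at least 180.4-fold higher in iNKT2. Tnfrsf19, the TNF receptor family member TROY, was at 179 and 194 in iNKT2 against 0 and 0 in iNKT1, at least 91.4-fold higher. Flrt2, an adhesion protein of neural guidance, was at 446 and 353 in iNKT2 against 3.23 and 0 in iNKT1 (log2 difference -7.60 ± 0.63 SE, adjusted p = 1.2e-05). P2rx7, the ATP-gated channel whose opening can kill T cells, was at 424 and 468 in iNKT2 against 17.2 and 0 in iNKT1 (log2 difference -6.71 ± 0.96 SE, adjusted p = 0.00050). Pde7b, a phosphodiesterase of cyclic AMP, was at 109 and 126 in iNKT2 against 0 and 0 in iNKT1 and Rprm, a cell cycle inhibitor that p53 induces, at 151 and 89.1 in iNKT2 against 0 and 0 in iNKT1. Both were at 6.92 or lower in iNKT17 cells. Sardh, the mitochondrial enzyme sarcosine dehydrogenase, was at 158 and 116 in iNKT2 against 0 and 0 in iNKT1, and Pstpip2, an adaptor at the actin cortex, at 185 and 197 in iNKT2 against 1.08 and 0 in iNKT1. Prg4, the gene of the lubricating glycoprotein lubricin, was at 312 and 487 in iNKT2 against 9.68 and 0 in iNKT1 (log2 difference -6.90 ± 0.77 SE, adjusted p = 8.7e-05). Pcsk1, a protease that cuts prohormones, was at 416 and 259.7 in iNKT2 against 8.61 and 0 in iNKT1. All of the genes named here except P2rx7 stayed under 10 in both iNKT1 libraries. They passed the minimum only through the iNKT2 libraries and so had to differ.

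Of the 16 markers listed for iNKT2 cells 14 were higher in iNKT2, Il4ra was higher in iNKT1 and Gata3 was not called (median -3.01). Ccr7, the receptor that guides cells to the thymic medulla and lymph nodes, was at 654 and 611 in iNKT2 against 24.7 and 99.9 in iNKT1 (log2 difference -3.64 ± 0.89 SE, adjusted p = 0.015). Its iNKT1 libraries differed 4-fold from each other. Slamf6, also called Ly108, was at 1016 and 999 in iNKT2 against 167 and 157 in iNKT1 (log2 difference -2.63 ± 0.19 SE, adjusted p = 4.7e-06). Nrp2, the gene of neuropilin 2, a receptor of semaphorins, was at 578 and 622 in iNKT2 against 72.1 and 59.2 in iNKT1 (log2 difference -3.18 ± 0.59 SE, adjusted p = 0.0031), and at 30.7 and 17.5 in iNKT17, below iNKT1. Pik3ap1, an adaptor of PI3 kinase, was nearly missing from iNKT2, at 806.8 and 239 in iNKT1 against 1.89 and 4.74 in iNKT2 (log2 difference 6.76 ± 0.47 SE, adjusted p = 3.5e-06), while iNKT17 held 253 and 269. Icos, a costimulatory receptor, was at 5338 and 5225 in iNKT2 against 894 and 1173 in iNKT1 (log2 difference -2.37 ± 0.17 SE, adjusted p = 3.8e-06), a gene named after its values were seen. Leaving out 1 library ended the call of Ccr7 (without either iNKT2 library, adjusted p up to 0.069).

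Receptors of homing and adhesion changed in both directions, 16 of 28 being higher in iNKT1 and 5 in iNKT2. Without the first iNKT2 library 3 were higher in iNKT2. Ccr4, a chemokine receptor of Th2 and regulatory T cells, was at 3644 and 3162 in iNKT2 against 152 and 74.0 in iNKT1 (log2 difference -4.99 ± 0.29 SE, adjusted p = 1.4e-06). Itgb3, the beta chain of the vitronectin receptor, was at 3553 and 3871 in iNKT2 against 119 and 178 in iNKT1 (log2 difference -4.66 ± 0.25 SE, adjusted p = 7.9e-07), and at 5015 and 6192 in iNKT17, the highest of the 3 subsets. In the other direction, Cxcr3, the receptor of chemokines that interferon gamma induces, was at 1032 and 984 in iNKT1 against 182 and 178 in iNKT2 (log2 difference 2.48 ± 0.62 SE, adjusted p = 0.017). It was named after its values were seen. The fits without 1 library no longer called Cxcr3 (without either iNKT2 library, adjusted p up to 0.077).

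Costimulatory and inhibitory receptors changed in both directions, 6 of 20 being higher in iNKT1 and 7 in iNKT2. Without either iNKT2 library 3 were higher in iNKT1, and 3 of the 6 passed the minimum only through the iNKT1 libraries. The inhibitory receptor gene Tigit was at 64.5 and 44.4 in iNKT1 against 0 and 0 in iNKT2 and the ligand gene Tnfsf8 at 24.7 and 22.2 in iNKT1 against 0.946 and 0.948 in iNKT2. Lag3, an inhibitory receptor of MHC class II, was at 152 and 158 in iNKT2 against 19.4 and 0 in iNKT1 and Tnfsf11, which encodes RANKL, the signal for medullary thymic epithelium, at 449 and 242 in iNKT2 against 10.8 and 25.9 in iNKT1 (log2 difference -4.22 ± 0.48 SE, adjusted p = 9.3e-05). The iNKT17 libraries overlapped iNKT2 for Tnfsf11, at 453 and 355. Pdcd1, which encodes the inhibitory receptor PD-1, was at 1612 and 1354 in iNKT2 against 296 and 168 in iNKT1 (log2 difference -2.72 ± 0.25 SE, adjusted p = 2.4e-05) and was named after its values were seen. The call was lost without 1 library for Tnfsf8 (without either iNKT2 library, adjusted p up to 0.062).

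Of 8 tested genes of the SLAM family and its adaptor 3 were higher in iNKT1 and 2 in iNKT2, or 1 in iNKT2 without the first iNKT2 library. Among them 2, Slamf7 and Cd244, passed the minimum only through the iNKT1 libraries and so had to differ. Of the 6 others 1 was higher in iNKT1 and 2 in iNKT2. Next to Slamf7 and Cd244, Cd48, whose product is the ligand of 2B4, was at 743 and 812.4 against 260.1 and 250.3 (log2 difference 1.60 ± 0.24 SE, adjusted p = 0.00066), higher in the same subset as its receptor gene. Cd84, which binds itself, was higher in iNKT2, at 1428 and 1299 in iNKT2 against 872 and 827 in iNKT1 (log2 difference -0.68 ± 0.15 SE, adjusted p = 0.0086), as was Slamf6. Slamf1, Ly9 and the adaptor gene Sh2d1a, which iNKT cells need to develop, were not called. Leaving out 1 library ended the call of Cd84 (without the first iNKT2 library, adjusted p = 0.051).

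Genes of the T cell receptor and its signals changed in both directions, 8 of 33 being higher in iNKT1 and 7 in iNKT2 (median -0.05). The count higher in iNKT2 was 12 without the first iNKT1 library and 2 without the second iNKT2 library. Cd247, which encodes the zeta chain of the receptor complex, was at 6226 and 6320 in iNKT2 against 1381 and 1275 in iNKT1 (log2 difference -2.24 ± 0.18 SE, adjusted p = 7.8e-06), with replicates within 10% of each other. Cd5, an inhibitor whose level follows the strength of selection signals, was at 1063 and 1484 in iNKT2 against 725 and 415 in iNKT1 (log2 difference -1.19 ± 0.27 SE, adjusted p = 0.0092), and the costimulator gene Cd28 at 4255 and 3466 in iNKT2 against 2041 and 2643 in iNKT1 (log2 difference -0.73 ± 0.18 SE, adjusted p = 0.015). The CD3 chains did not share that difference: Cd3e was at 4452 and 5988 in iNKT2 against 6401 and 3860.2 in iNKT1 and Cd3g at 10504 and 9202 in iNKT2 against 11821 and 10894 in iNKT1, and neither was called (adjusted p = 0.91 and 0.52, with Cd5 and Cd28 named after their values were seen). Cd2, an adhesion receptor that lowers the threshold of activation, was at 2670.1 and 2526 in iNKT1 against 393 and 292 in iNKT2 (log2 difference 2.93 ± 0.52 SE, adjusted p = 0.0023). The inhibitory phosphatase genes Ptpn22, at 1794 and 1745 against 400.1 and 459 (log2 difference 2.04 ± 0.20 SE, adjusted p = 3.2e-05), and Ubash3a, at 442 and 189 against 61.5 and 39.8 (log2 difference 2.52 ± 0.50 SE, adjusted p = 0.0045), were higher in iNKT1, as was the kinase gene Txk at 880 and 1094 against 347 and 342. Of 20 tested immediate early genes, which signals and the stress of isolation both induce, 4 were higher in iNKT1 and 2 in iNKT2. The shares over all genes were 8.99% and 8.33%. Without the second iNKT2 library 1 was higher in iNKT2. Fosl2, of the AP-1 family, was at 412 and 613 in iNKT1 against 148 and 123 in iNKT2 (log2 difference 1.89 ± 0.28 SE, adjusted p = 0.00073), whereas Fos was at 4.30 and 109 against 1.89 and 11.4 and Nr4a1 at 35.5 and 96.2 against 153 and 178, and neither was called. The fits without 1 library no longer called Cd28 (without the first iNKT2 library, adjusted p = 0.096) and Cd5 (without the second iNKT2 library, adjusted p = 0.079).

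Of the interferon-induced genes 8 of 32 tested were higher in iNKT2 and 3 in iNKT1 (median -0.33). Over all genes tested 8.33% were higher in iNKT2 and 8.99% in iNKT1. Without the first iNKT2 library 5 were higher in iNKT2 and without the second 4, and with the 4 libraries alone 1 was higher in each subset. Oas1a, which senses double-stranded RNA, was at 235 and 290.1 in iNKT2 against 38.7 and 68.5 in iNKT1 (log2 difference -2.32 ± 0.34 SE, adjusted p = 0.00058), and Ifi27l2a at 1231 and 989 in iNKT2 against 266 and 503 in iNKT1 (log2 difference -1.59 ± 0.28 SE, adjusted p = 0.0023). Ly6c2, described above, belongs to the same list and went the other way, as did the guanylate binding protein genes Gbp3 and Gbp9. Ly6c2 passed the minimum only through the iNKT1 libraries and so had to differ. Ifit1, Isg15 and Mx1, among the genes most used to read a type I interferon response, were not called, at 167 and 209 against 219 and 261, 69.9 and 115 against 194 and 169.7 and 33.3 and 70.3 against 20.8 and 12.3. These genes were named after their values were seen. The call was lost without 1 library for Gbp3 (without the first iNKT2 library, the second iNKT1 library or the second iNKT2 library, adjusted p up to 0.12).

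Several genes of iNKT17 cells were read at a low level in iNKT2 and hardly at all in iNKT1. Of 10 tested 6 were higher in iNKT2 and 1, the channel gene Aqp3, was higher in iNKT1. Of the 6, 4 passed the minimum only through the iNKT2 libraries. Il23r, the interleukin 23 receptor, was at 76.6 and 72.0 in iNKT2 against 0 and 0 in iNKT1 and at 4004 and 3574 in iNKT17 (log2 difference -6.23 ± 0.27 SE, adjusted p = 2.3e-07). Sdc1, the gene of syndecan 1, was at 74.7 and 77.7 in iNKT2 against 0 and 0 in iNKT1 and at 3542 and 3379 in iNKT17. Blk, a kinase of the Src family, was at 85.1 and 65.4 in iNKT2 against 6.45 and 0 in iNKT1 and at 6079 and 5063 in iNKT17, and Il1r1, the interleukin 1 receptor, at 76.6 and 87.2 in iNKT2 against 2.15 and 0 in iNKT1 and 3745 and 3280.2. The iNKT2 mean was between 1.35% of the iNKT17 mean for Blk and 2.33% for Il1r1. Whether iNKT17 cells passed the iNKT2 gate was not tested. Leaving out 1 library ended the call of Aqp3 (without the first iNKT2 library, the second iNKT1 library or the second iNKT2 library, adjusted p up to 0.11).

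Genes of immature, CD4 CD8 double-positive thymocytes were higher in iNKT1. Of 14 tested 10 were higher in iNKT1 and none in iNKT2 (median 2.39), and 9 without the second iNKT1 library. Without either iNKT2 library 7 were higher in iNKT1, and without the first iNKT1 library 1 was higher in iNKT2. Rag1, which recombines the receptor genes (chromosome 2, 101638252 to 101649532), was at 5903 and 6309 in iNKT1 against 873 and 1097 in iNKT2 (log2 difference 2.64 ± 0.38 SE, adjusted p = 0.00050). Dntt, which adds bases at the joints of recombined receptor genes, was at 1708 and 1854 in iNKT1 against 171 and 174 in iNKT2 (log2 difference 3.36 ± 0.39 SE, adjusted p = 0.00012). Cd8a was at 1459 and 1057 against 161 and 217 (log2 difference 2.73 ± 0.33 SE, adjusted p = 0.00017) and Ctsl, the gene of cathepsin L, at 1742 and 1282 against 241 and 228 (log2 difference 2.67 ± 0.26 SE, adjusted p = 3.1e-05). In the 4 genes the iNKT1 replicates lay within 1.5-fold of each other and all above iNKT2, and the iNKT17 libraries held 526 and 941 of Rag1 and 124 and 256 of Dntt. Ptcra, the receptor chain of the preceding stage, was at 16.1 and 12.95 against 3.78 and 0 and was not called (adjusted p = 0.15). Summed over the 16 genes of the list, the level was 16897 and 15904 in iNKT1, 4034 and 4350.1 in iNKT2 and 2839 and 3806 in iNKT17.

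Replication-dependent histones, whose genes are transcribed in S phase, were higher in the same libraries. Of 55 tested histone genes 41 were higher in iNKT1 and none in iNKT2 (median 1.79), and 29 when the second iNKT1 library was left out and 19 when the second iNKT2 library was. Hist1h2bm, an H2B gene, was at 1337 and 3975 in iNKT1 against 339.5 and 286 in iNKT2 (log2 difference 2.88 ± 0.53 SE, adjusted p = 0.0028) and Hist1h2an, an H2A gene, at 918 and 1765 in iNKT1 against 232 and 149 in iNKT2 (log2 difference 2.77 ± 0.37 SE, adjusted p = 0.00033). Hist3h2ba, outside the main clusters, was at 229 and 239 in iNKT1 against 27.4 and 27.5 in iNKT2 (log2 difference 3.04 ± 0.43 SE, adjusted p = 0.00047). The second iNKT1 library was the highest of the 4 for Hist1h2bm and Hist1h2an. Many of these genes are near-identical copies, so single values are uncertain, and 46 tested Hist1 genes lie on chromosome 13, 35 of them called. The summed level of the list was 87849 and 120069 in iNKT1, 44258 and 26506 in iNKT2 and 27411 and 23251 in iNKT17. The part of immature thymocytes in these values was not tested.

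Genes of G2 phase and mitosis leaned the same way, with 10 of 46 higher in iNKT1 and none in iNKT2 (median 1.30). The paper measured division by BrdU labelling in young thymus, where uptake was lowest in iNKT1 and highest in iNKT2. It concludes that RNA of replication-dependent histones did not follow how much each subset divided. Ccna2, the gene of cyclin A2, was at 529 and 557 in iNKT1 against 101 and 119 in iNKT2 (log2 difference 2.29 ± 0.53 SE, adjusted p = 0.011), and Nusap1, a spindle gene, at 398 and 213 in iNKT1 against 61.5 and 55.0 in iNKT2 (log2 difference 2.30 ± 0.54 SE, adjusted p = 0.012). Cdk1, the kinase of mitosis, was at 173 and 254 in iNKT1 against 52.0 and 43.6 in iNKT2 (log2 difference 2.11 ± 0.57 SE, adjusted p = 0.024). The count was 4 without the first iNKT2 library, 13 without the second iNKT1 library, 18 in edgeR without that library, and 3 with the 4 libraries alone. Genes of S phase and DNA replication showed little of this lean, since 3 of 42 were higher in iNKT1 and none in iNKT2 (median 0.32). That share was near the 8.99% of all genes that were higher in iNKT1. The 3 were E2f2, at 579.8 and 209 against 74.7 and 129, Slbp, which encodes the protein that binds histone mRNA, at 823 and 1114 against 387 and 453 (log2 difference 1.19 ± 0.19 SE, adjusted p = 0.0011), and the licensing gene Cdt1, at 402 and 435 against 197 and 294. Rrm2, which supplies deoxynucleotides, was at 485 and 254 against 153 and 138 and was not called (adjusted p = 0.12). The fits without 1 library no longer called Ccna2 (without the first iNKT2 library, adjusted p = 0.064), Cdk1 (without the first iNKT2 library, the second iNKT1 library or the second iNKT2 library, adjusted p up to 0.11), Cdt1 (without the first iNKT2 library or the second iNKT1 library, adjusted p up to 0.24), E2f2 (without the first iNKT1 library or the first iNKT2 library, adjusted p up to 0.17) and Nusap1 (without the second iNKT2 library, adjusted p = 0.068).

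**Figure D4:**
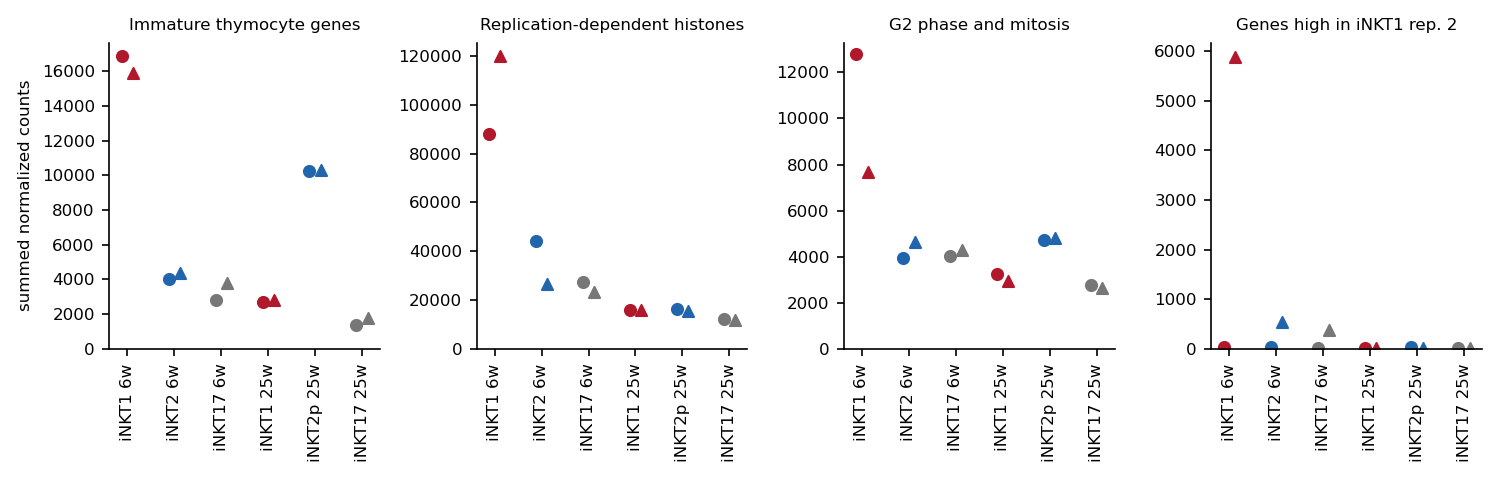
Each point is 1 library, with the summed normalized counts of a gene list on the y axis and the 6 groups of subset and age (6w and 25w, weeks) on the x axis, replicate 1 as a circle and replicate 2 as a triangle. Immature thymocyte genes, histones and mitotic genes are highest in the iNKT1 libraries at 6 weeks, immature thymocyte genes are next in iNKT2p at 25 weeks, and the 68 genes of the second iNKT1 library reach 5877 there, 536 and 378 in the second iNKT2 and iNKT17 libraries and at most 38.3 elsewhere.

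Genes of glycolysis changed in both directions, and few genes of respiration and of ribosomes were called. Of 21 tested genes of glycolysis 8 were higher in iNKT2 and 3 in iNKT1 (median -0.58), but 3 and 3 without the second iNKT2 library. Hif1a, the factor that induces glycolysis, was at 2396 and 1930 in iNKT2 against 1161 and 949 in iNKT1 (log2 difference -1.03 ± 0.19 SE, adjusted p = 0.0032). Of the enzymes Gpi1, Pfkp, Aldoa, Gapdh, Eno3, Pkm and Ldha were higher in iNKT2, with Gapdh, for example, at 839.8 and 1224 in iNKT2 against 709 and 439 in iNKT1 (log2 difference -0.86 ± 0.26 SE, adjusted p = 0.040). Of the lactate dehydrogenase subunits Ldha was at 3767 and 3016 in iNKT2 against 1951 and 1826 in iNKT1 (log2 difference -0.84 ± 0.17 SE, adjusted p = 0.0054) and Ldhb, in contrast, at 253 and 468 in iNKT1 against 73.8 and 51.2 in iNKT2 (log2 difference 2.47 ± 0.38 SE, adjusted p = 0.00082). The glucose transporter genes Slc2a3 and Slc2a1 went the other way, at 966 and 1331 against 369.8 and 272 (log2 difference 1.83 ± 0.21 SE, adjusted p = 0.00012) and at 505 and 785 against 306 and 224 (log2 difference 1.26 ± 0.25 SE, adjusted p = 0.0044). Gpi1, Pfkp, Aldoa, Gapdh, Pkm and Ldha were named after their values were seen. Of 59 nuclear genes of the respiratory chain 3 were higher in iNKT2 and none in iNKT1 (median -0.23), below the 8.33% of all genes that were higher in iNKT2. This count was 6 and 5 without the second and the first iNKT1 library and 1 without either iNKT2 library. Of 73 genes of cytosolic ribosomal proteins 7 were higher in iNKT2 and none in iNKT1 (median -0.42), a share near the 8.33% of all genes. This count turned on single libraries: 47 were higher in iNKT2 without the second iNKT1 library and 3 without the first iNKT2 library. Rpl28 was at 3427 and 3722 in iNKT2 against 1574 and 1765 in iNKT1 (log2 difference -1.10 ± 0.16 SE, adjusted p = 0.00061). The call was lost without 1 library for Aldoa (without the first iNKT2 library, the second iNKT1 library or the second iNKT2 library, adjusted p up to 0.080), Eno3 (without the first iNKT2 library, the second iNKT1 library or the second iNKT2 library, adjusted p up to 0.13), Gapdh (without the second library of either subset, adjusted p up to 0.25), Gpi1 (without the second iNKT2 library, adjusted p = 0.060) and Pfkp (without the second iNKT2 library, adjusted p = 0.057).

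Defining genes of B cells and red cells were low, and some genes listed with other cell types were read at higher levels. None of the 9 B cell genes and none of the 11 genes of red cells and platelets reached the minimum, and their highest values in the 4 libraries were 6.45 of Cd22 and 16.1 of Alas2, both in the first iNKT1 library. Of 21 myeloid genes 5 were tested and none was called, or 1 without the first iNKT1 library, the highest being Cst3, which T cells also express, at 583 and 844 against 551 and 407. The summed thymic epithelium level was 2048 and 1662 in iNKT1 and 178 and 358 in iNKT2. Nearly all of it in the first iNKT1 library was Cdh1, described below. At 25 weeks iNKT1 held no read of Krt8 or Krt19. The sum was then 3401 and 3237 in iNKT1, of which Cdh1 made 3389 and 3231, and 380 and 318 in iNKT2p. In the 4 libraries at 6 weeks the summed B cell level was at most 10.8. The summed myeloid level there was between 463 and 1118, highest in the second iNKT1 library. Lyz2, the gene of lysozyme, was at 19.4 and 24.1 against 0 and 1.896 (log2 difference 3.73 ± 1.36 SE, adjusted p = 0.083). Among genes of thymic epithelium Cdh1, which encodes E-cadherin, was higher in iNKT1, at 2021 and 568 against 170.2 and 225 (log2 difference 2.45 ± 0.67 SE, adjusted p = 0.026), although the keratins of that list were read almost only in the second iNKT1 library, which held the lower Cdh1 value. Il2ra, which encodes the alpha chain of the interleukin 2 receptor and is listed with regulatory T cells, was at 195 and 48.1 in iNKT1 against 14.2 and 22.8 in iNKT2 (log2 difference 2.37 ± 0.48 SE, adjusted p = 0.0054), while Ikzf2 of the same list was at 2016 and 1875 in iNKT2 against 661 and 457 in iNKT1 (log2 difference -1.82 ± 0.27 SE, adjusted p = 0.00067). Of the endothelial and stromal genes Vcam1 was at 11.8 and 22.2 in iNKT1 against 0 and 0 in iNKT2 (log2 difference 4.11 ± 1.17 SE, adjusted p = 0.031) and Pecam1, the gene of the adhesion receptor CD31, which lymphocytes also express, was at 504 and 537 in iNKT2 against 162 and 90.7 in iNKT1 (log2 difference -2.09 ± 0.31 SE, adjusted p = 0.00065). Leaving out 1 library ended the call of Cdh1 (without the first iNKT1 library, the first iNKT2 library or the second iNKT2 library, adjusted p up to 0.12) and Vcam1 (without the first iNKT2 library, the second iNKT1 library or the second iNKT2 library, adjusted p up to 0.11).

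The same subsets at 25 weeks gave 4 other libraries, with the reservation that iNKT2p is a mixture. They were tested in the same fit, with an estimate of the spread shared by both ages. There 1546 of the same 10782 genes differed (14.3%), with 752 (6.97%) higher in iNKT1 and 794 (7.36%) higher in iNKT2p. Of the 969 genes higher in iNKT1 at 6 weeks 517 were higher in iNKT1 at 25 weeks too and 46 were lower, and of the 898 higher in iNKT2 476 were higher in iNKT2p and none was lower. The effector genes named here held their side: Tbx21 was at 2168 and 1920.5 in iNKT1 and 104 and 37.7 in iNKT2p, and Prf1 at 957 and 785 against 3.55 and 0. Gzma was at 297 and 265 against 1.42 and 5.39 and Gzmb at 1016 and 1008 against 0 and 0. In iNKT1 both lay below their levels at 6 weeks, 4106 and 4139.7 for Gzma and 2842 and 2421 for Gzmb. On the iNKT2p side Ccr4 was at 32.2 and 47.6 in iNKT1 and 3202 and 2683 in iNKT2p, and Hey1 at 0 and 0 against 251 and 179. Of 37 listed iNKT1 markers 34 were tested. At 6 weeks 15 of these passed the minimum only through the iNKT1 libraries and so had to differ, and the 19 others were all higher in iNKT1. At 25 weeks, which the minimum did not use, all 34 were higher in iNKT1. The list was chosen with earlier results of these data known, so this is no independent test.

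The difference between iNKT1 and iNKT2 itself differed between the ages in 140 genes (1.3% of those tested). The difference, iNKT1 minus iNKT2, was lower at 25 weeks in 135 (1.25%) and higher in 5 (0.0464%). Of the 140 genes 80 were higher in iNKT1 at 6 weeks, 19 were higher in iNKT2 and 41 were not called, and 104 had the opposite sign at 25 weeks. Immature thymocyte genes made up 11 of them and histones 20. Rag1 was at 782 and 792 in iNKT1 and 3371 and 3424 in iNKT2p at 25 weeks, the reverse of the order at 6 weeks (change of the log2 difference -4.75 ± 0.53 SE, adjusted p = 0.0013). Dntt was at 124 and 169.9 in iNKT1 and 696 and 604 in iNKT2p (-5.51 ± 0.55 SE, adjusted p = 0.00071). For the histone list the median log2 difference was -0.61 at 25 weeks, and for the mitosis list -1.11, against 1.79 and 1.30 at 6 weeks. Hist1h2an, for example, was at 28.4 and 24.5 in iNKT1 and 73.1 and 79.7 in iNKT2p. The summed immature thymocyte level at 25 weeks was 2705 and 2842 in iNKT1 and 10264 and 10326 in iNKT2p, and the histone level 16090.3 and 16033 in iNKT1 against 16347 and 15277 in iNKT2p. Il23r was at 0 and 0 in iNKT1 and 480.5 and 607 in iNKT2p (-2.84 ± 0.38 SE, adjusted p = 0.0039). Without the first iNKT1 library at 6 weeks the counts were 389 lower and 629 higher at 25 weeks, and without the second they were 195 and 63.

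**Figure D5:**
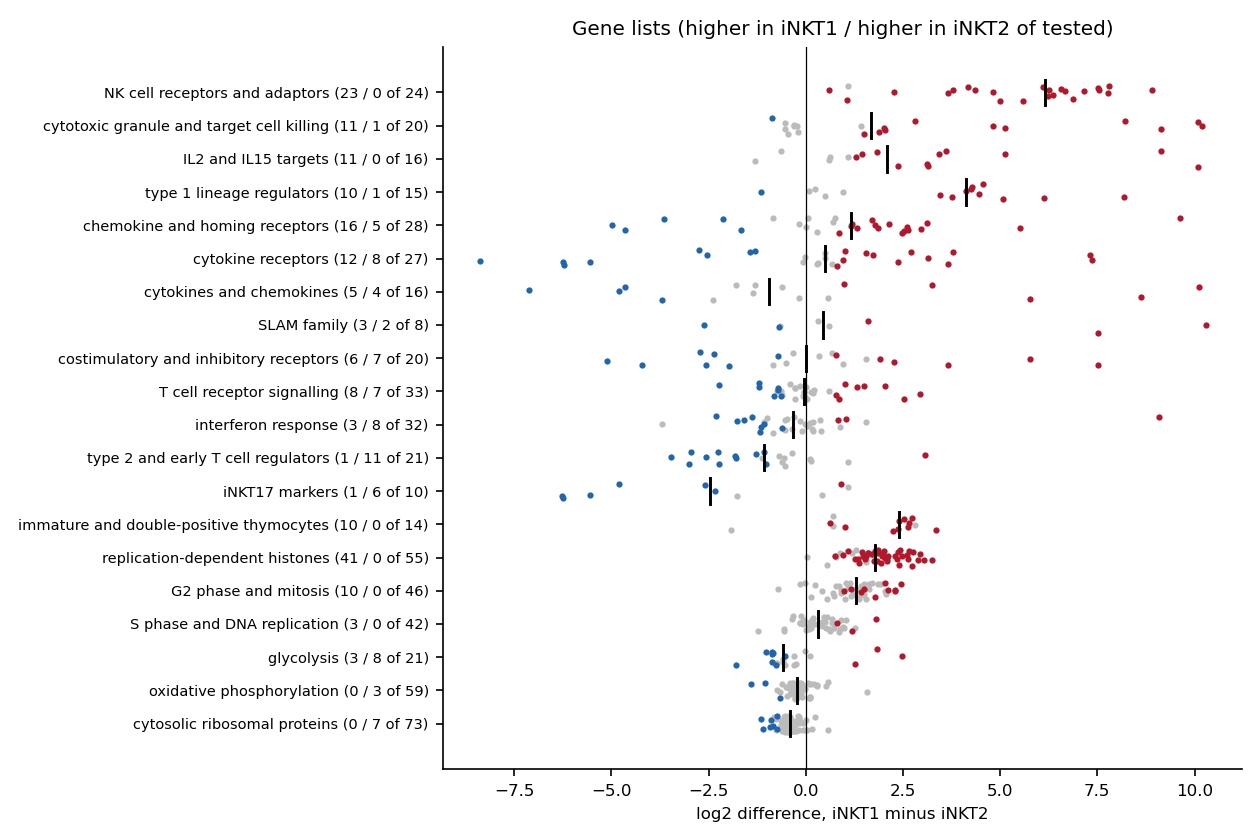
Each point is 1 tested gene of a list, with its log2 difference at 6 weeks, iNKT1 minus iNKT2, on the x axis (red for higher in iNKT1, blue for higher in iNKT2 and grey for not called), and the black bar is the median of the list. NK cell receptors lie farthest to the right with a median of 6.16, 13 of these 24 having passed the minimum only through iNKT1, whereas genes of the T cell receptor and its signals are spread around 0 with a median of -0.05.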

How the data were processed

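RNA was sequenced from pooled, sorted thymic iNKT cells of 12 libraries in 6 groups, plus 1 repeat library that was left out. Per the labels and the study's methods, libraries were made with the SMARTer Stranded Total RNA-Seq Pico kit and sequenced as single reads, reads were trimmed (Trim Galore 0.4.1, Cutadapt 1.9.1, FastQC 0.11.4), aligned to mm10 with STAR 2.5.0c and counted per gene, by strand, with featureCounts. The authors deposited normalized counts, a per-gene signal made by DESeq2 over all of their libraries, and adjusted p-values of 9 comparisons, which were not used. Reads with low mapping quality were dropped by the authors, which lowers genes with near-identical copies.

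Genes at 10 or more in at least 2 of the 4 libraries were tested with limma 3.58.1 (R 4.3.3) on log2 of the normalized count plus 1, with a variance trend, 1 mean for each of the 6 groups, no replicate block and Benjamini-Hochberg adjustment over 10782 genes, which left 6 residual degrees of freedom. Sample labels gave the groups. All values (100%) were whole multiples of 1 read within 0.01, so edgeR 4.0.16 and DESeq2 1.42.0 were run on the recovered reads as alternatives, beside other pseudocounts, minimums and scalings, fewer libraries and the fits without each library. The script was tested on simulated data. Members and gene lists were chosen with earlier results of these data known. Genes were named by a rule: the sort markers, signature genes of the study, the 12 largest called differences in each direction with a mean of at least 100, up to 5 members of each list with the largest differences, and the highest member of lists of other cell types. Genes outside the rule are said to have been named after their values were seen, which also holds for Klrb1a, Fcer1g, Tyrobp, Slamf1, Ly9, Sh2d1a, Aqp3, Cdt1, Cdx2, Eif2s3y and the genes named between the Klr genes. Promoter windows came from RefSeq (GRCm38.p6). Precision is limited by 2 libraries a group, and p-values cover the spread between libraries only. Some genes, among them ones that the rule names, are not reported here.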

Additional observations from a re-analysis of the deposited data

Results flagged for a closer look

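The difference between iNKT1 and iNKT2 differed between the ages, by the test of that change itself, in 17 genes named in the report. The change is the log2 difference at 25 weeks minus that at 6 weeks, so a negative value means that iNKT1 stood lower against the CD122- CD4+ gate at 25 weeks, and all 17 were negative.

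Among genes of double-positive thymocytes the change was -4.75 ± 0.53 SE (adjusted p = 0.0013) for Rag1, -5.51 ± 0.55 SE (adjusted p = 0.00071) for Dntt, -4.56 ± 0.47 SE (adjusted p = 0.00079) for Cd8a and -4.90 ± 0.36 SE (adjusted p = 0.00014) for Ctsl. In these 4 genes iNKT1 was the higher subset at 6 weeks and the lower at 25 weeks.

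Among histones it was -4.73 ± 0.75 SE (adjusted p = 0.0097) for Hist1h2bm, -4.27 ± 0.52 SE (adjusted p = 0.0024) for Hist1h2an and -3.65 ± 0.61 SE (adjusted p = 0.013) for Hist3h2ba. Of the genes of mitosis Nusap1 changed by -5.23 ± 0.76 SE (adjusted p = 0.0062), Ccna2 by -3.73 ± 0.75 SE (adjusted p = 0.034) and Cdk1 by -3.72 ± 0.80 SE (adjusted p = 0.048).

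For genes of iNKT17 cells the change was -2.84 ± 0.38 SE (adjusted p = 0.0039) for Il23r, -3.25 ± 0.64 SE (adjusted p = 0.030) for Il1r1 and -1.98 ± 0.35 SE (adjusted p = 0.016) for Aqp3. The remaining genes were the receptor genes Ifngr2 (-4.46 ± 0.87 SE, adjusted p = 0.030), Il2ra (-4.04 ± 0.68 SE, adjusted p = 0.014) and Pdcd1 (-1.84 ± 0.35 SE, adjusted p = 0.030), and the lactate dehydrogenase gene Ldhb (-4.22 ± 0.53 SE, adjusted p = 0.0028). Ldhb stood at 64.3 and 52.8 in iNKT1 and 199 and 198 in iNKT2p at 25 weeks, compared with 253 and 468 in iNKT1 and 73.8 and 51.2 in iNKT2 at 6 weeks. This call ended without 1 library at 6 weeks for Ccna2, Ifngr2, Il1r1 and Pdcd1 (without either iNKT2 library, adjusted p up to 0.12, 0.092, 0.10 and 0.096), for Cdk1 (without either iNKT2 library or the second iNKT1 library, adjusted p up to 0.15) and for Aqp3 and Il2ra (without the first iNKT2 library, adjusted p = 0.056 and 0.055).

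The summed level of immature thymocyte genes moved with these values, as given in the report, and its part in them was not tested. The aged CD122- CD4+ gate holds a mixture of cells, so a change of age and a change of the gate's content cannot be told apart. The paper reports iNKT17 cells among the sorted aged iNKT2p cells, and higher purity of the other sorted populations. At 25 weeks the iNKT17 libraries held 4889 and 5159 of Il23r, 3423 and 3183 of Il1r1 and 1842 and 1871 of Il2ra. The iNKT2p libraries held 480.5 and 607, 367 and 534, and 281 and 275. The part of iNKT17 cells in these changes was not tested.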

How the results depend on the processing

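Of 2805 single-gene values at 6 weeks recomputed under the alternatives, 2605 kept their direction and their side of the threshold, 155 kept only the direction, 26 passed the threshold anew and 19 changed sign, all of them in genes not called. Of 271 values of the change between ages 240 kept both and 31 kept the direction only. With the 4 libraries alone, 296 genes were higher in iNKT1 and 164 in iNKT2, and with the 6 libraries at 6 weeks 537 and 465, since fewer libraries give fewer degrees of freedom. The 4 libraries alone also left 19 histone genes higher in iNKT1 and, higher in iNKT2, 1 gene of T cell receptor signals and none of glycolysis or ribosomal proteins. Fits without each library in turn gave 689 to 1429 genes higher in iNKT1 and 509 to 2035 higher in iNKT2, with 86 to 389 changes between ages downward and 0 to 629 upward. The highest counts came without the first iNKT1 library, and the cause was not tested. At 6 weeks edgeR on the recovered reads called 909 and 843 genes and DESeq2 1154 and 999. DESeq2 gave 283 downward changes and edgeR without the second iNKT1 library gave 207, against 135. The 5 upward changes became 13 with a pseudocount of 5, 14 with no variance trend, 13 in edgeR, 50 in DESeq2, 73 in edgeR without the second iNKT1 library and 8 with the trend with GC content removed. Both of the last kinds of fit were chosen after seeing the data.

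Leaving out each library in turn, the log2 difference ran from -0.42 to 0.31 for Cd3e, from -2.12 to 3.70 for Cdx2, from -0.17 to 4.20 for Fos, from -2.46 to 6.18 for Krt19, from -0.63 to 6.02 for Krt8, from -0.045 to 0.65 for Ly9, from -0.0018 to 1.91 for Runx3, from -0.67 to 0.089 for Srgn and from -0.45 to 1.58 for Tnf. In edgeR without the second iNKT1 library it was 0.27 for Cd3e, -6.36 for Cdx2, -0.63 for Fos, -7.06 for Krt19, -2.67 for Krt8 and -0.48 for Tnf. No paired analysis was done. The paper describes 2 independent sorts, but the labels give the libraries no replicate numbers and do not say which were sorted together. The aged libraries were not left out in turn. Low depth of the second iNKT1 library, 3590903 reads, limits genes of few reads.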
